A study of Oryctolagus cuniculus with 8 samples.

Results

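Transcription factors that set epithelial or mesenchymal identity are described here in rabbit limbal cells. The set was chosen by gene name, with earlier results of these data known. It holds 9 of the 20922 gene entries of the deposited table: TP63, PAX6, DLX3, SNAI2, EHF, ELF3, GRHL3, ZEB1 and TCF4. Each name matched 1 entry, and all 9 passed the filter on low counts. ZEB1 passed it through the SP libraries alone and DLX3 through the NSP libraries alone, so both had to differ between the groups, while the other 7 were above the filter level in every library.

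The corneal epithelium is renewed from the limbus, the ring of tissue between cornea and conjunctiva, where basal cells express TP63 and PAX6. Factors of the grainyhead (GRHL3) and ETS (EHF, ELF3) families act in epithelial differentiation and barrier formation, and DLX3 acts in tissues derived from surface ectoderm. ZEB1 and SNAI2 are zinc finger proteins that bind E-box motifs and can repress epithelial genes such as CDH1, the gene of E-cadherin, during epithelial-mesenchymal transition. TCF4 is the basic helix-loop-helix E protein also called E2-2, a different gene from TCF7L2, which is sometimes given the same name.

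The SP group (side population, 4 samples) was isolated by staining with the DNA-binding dye Hoechst 33342. By the usual definition side population cells pump this dye out and stay dim. The NSP group (4 samples) holds the non-side-population cells, which keep the dye. Both came from the limbal epithelium of New Zealand white rabbits, for which the labels give a weight range but no age, genotype or treatment, and total RNA was sequenced on an Ion Proton machine. The labels name no step that removed blood, vessel or pigment cells before the sort. Nor do they say whether each library came from its own animal or from pooled animals, and the p-values therefore rest on a spread among libraries that could be technical.

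The table held 15553295 to 18931836 exon reads per SP library and 20445565 to 23529101 per NSP library. Intron reads made up 27.1 to 40.7% of gene reads in SP libraries and 21.5 to 24.9% in NSP libraries (exact two-sided permutation p = 0.0286, the smallest that 4 against 4 allows). Of 10012 genes tested with limma-voom, 30.7% passed an adjusted p of 0.05, of which 57.7% were higher in SP. That share was 51% with median-ratio and 46.9% with upper-quartile factors, while the median log2 fold change of all genes moved to 0.00 and -0.06, against 0.12 as reported here. Libraries are written SP 1 to SP 4 and NSP 1 to NSP 4 in the order of the table, and the numbers link no SP library to an NSP library. Levels are CPM, exon reads scaled to a common total, and fold changes are SP over NSP on the log2 scale with their standard errors.

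Of the 9 factors, 5 fell in SP, 2 rose and 2 did not pass the threshold. The background for these counts is 30.7% of all tested genes called in either direction, 13.0% called lower and 17.7% called higher. Among the 7 factors above the filter level in every library, 4 fell and 1 rose. The libraries of SP and NSP did not overlap for 7 of the 9 factors, against 32.8% of all tested genes. ZEB1 and DLX3 are among the 7, and passing the filter through 1 group alone fixed this outcome for them. Because these are bulk samples, fewer cells of a type and less RNA per cell cannot be told apart.

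TP63, the p53-family master regulator of stratified epithelia and a marker of limbal basal cells, was lower in every SP library. It stood at 25.4, 2.02, 1.56 and 24.1 CPM in SP 1 to SP 4, against 189, 261, 391 and 262 CPM in NSP 1 to NSP 4. The SP libraries formed a higher and a lower pair, and even the higher pair lay far below the lowest NSP library. The fitted log2 fold change was -5.42 ± 0.75 (limma-voom adjusted p = 0.000654). With 1 library left out it ranged from -6.11 to -4.70. The exon reads behind it numbered 468, 39, 29 and 346 in SP and 4208 to 7843 in NSP. The table gives 1 value per gene, so the full-length and truncated forms of p63 were not separated.

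PAX6, the paired-box and homeodomain factor of eye development and corneal epithelial identity, also fell. Its levels were 49.6, 87.4, 5.75 and 33.1 CPM in SP and 256, 304, 398 and 251 CPM in NSP. The groups did not overlap, and SP 3 stood well below the other SP libraries. This gave a log2 fold change of -3.30 ± 0.64, or -2.48 without SP 3 (limma-voom adjusted p = 0.00351 with all libraries).

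DLX3, a distal-less homeobox factor of skin, hair, teeth and placenta, was nearly without reads in SP. It had 1, 0, 0 and 3 exon reads in SP 1 to SP 4, against 293, 375, 274 and 183 reads in NSP 1 to NSP 4. In CPM the NSP libraries ranged from 8.84 to 17.3, far from the 0 to 0.209 CPM of the SP libraries. The pooled reads, 4 in SP and 1125 in NSP, gave an NSP-over-SP ratio of 235 with a 95% counting interval from 91.5 to 864, which covers counting error only. The fitted value, a fall by 7.73 ± 0.93 on the log2 scale (limma-voom adjusted p = 0.000354), depends on the added offset and was -4.58 with limma-trend. Since DLX3 passed the filter through NSP alone, it had to differ, and this p-value is a description only. Reads across exon-exon junctions made up 11.3, 9.87, 0.365 and 4.37% of the DLX3 exon reads in NSP 1 to NSP 4, so NSP 3 held almost none among its 274 reads.

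SNAI2, also called Slug, is a repressor known both from epithelial-mesenchymal transition and from basal keratinocytes. It fell in SP, in the opposite direction to ZEB1 and TCF4. Its levels were 64.1, 54.6, 37.8 and 140 CPM in SP, against 523, 484, 305 and 409 CPM in NSP. Every SP library lay below every NSP library, with SP 4 the highest of the SP group. SNAI2 fell by 2.70 ± 0.37 on the log2 scale (limma-voom adjusted p = 0.000593).

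GRHL3, a grainyhead-like factor required for the epidermal barrier in mice, also fell. It stood at 57.2, 73.2, 4.95 and 67.6 CPM in SP and at 127, 172, 228 and 231 CPM in NSP. The groups did not overlap, and SP 3 again stood apart from the other SP libraries. GRHL3 fell by 2.44 ± 0.70 on the log2 scale (limma-voom adjusted p = 0.0237). Without SP 3 the log2 fold change was -1.49, and the call ended without NSP 3 (adjusted p = 0.0557) or without NSP 4 (adjusted p = 0.0587).

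EHF, an ETS factor of epithelia that is abundant in the cornea, did not pass the threshold. Its levels were 633, 1075, 87.2 and 319 CPM in SP and 1009, 1185, 2079 and 1146 CPM in NSP. SP 2 lay above the lowest NSP library, so the groups overlapped, while the other SP libraries lay below all of NSP. The log2 fold change was -1.81 ± 0.65, with a 95% interval from -3.25 to -0.37 (limma-voom adjusted p = 0.0575). EHF passed with median-ratio factors (-1.93, adjusted p = 0.0486), with upper-quartile factors (-1.99, adjusted p = 0.0408), with limma-trend (-1.81, adjusted p just under 0.05), without SP 1 (adjusted p = 0.0462) and without SP 2 (adjusted p = 0.0182), and its fold change was -1.11 without SP 3.

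ELF3, a second ETS factor of epithelial differentiation, showed the smallest difference of the 9 factors. It stood at 485, 1040, 102 and 283 CPM in SP and at 1019, 669, 398 and 717 CPM in NSP. SP 2 was above every NSP library, SP 1 lay among them and SP 3 and SP 4 were below all of them, so the groups overlapped. The log2 fold change was -0.94 ± 0.60, with a 95% interval from -2.27 to 0.40 (limma-voom adjusted p = 0.268). That interval includes both no difference and a difference as large as the one fitted for EHF.

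ZEB1, the zinc finger and homeobox repressor of epithelial genes, was present in every SP library and nearly absent from NSP. Its levels were 23.9, 20.9, 35.5 and 25.8 CPM in SP, against 0.135, 0.462, 0 and 0.0966 CPM in NSP. These levels came from 439, 404, 661 and 371 exon reads in SP and 3, 10, 0 and 2 reads in NSP. The highest SP library stood at 1.7 times the lowest, the smallest span among the 8 factors with reads in every SP library. The pooled reads, 1875 in SP and 15 in NSP, gave a ratio of 150 with a 95% counting interval from 90.5 to 268. The fitted log2 fold change was 7.72 ± 0.94 (limma-voom adjusted p = 0.00037), or 5.34 with limma-trend. Since ZEB1 passed the filter through SP alone, it had to differ, and this p-value is a description only.

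TCF4 is an E protein of mesenchymal, neural and immune cells, and a repeat expansion in one of its introns is linked to Fuchs dystrophy of the human corneal endothelium. It stood at 246, 305, 446 and 759 CPM in SP and at 26.7, 28.3, 30.5 and 32.8 CPM in NSP. The groups were far apart, and the NSP libraries lay close together at a level that was low but well covered, with 594 or more exon reads each. TCF4 rose by 3.76 ± 0.36 on the log2 scale (limma-voom adjusted p = 0.000159). TCF4 had the smallest adjusted p of the 9 factors.

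**Figure D1:**
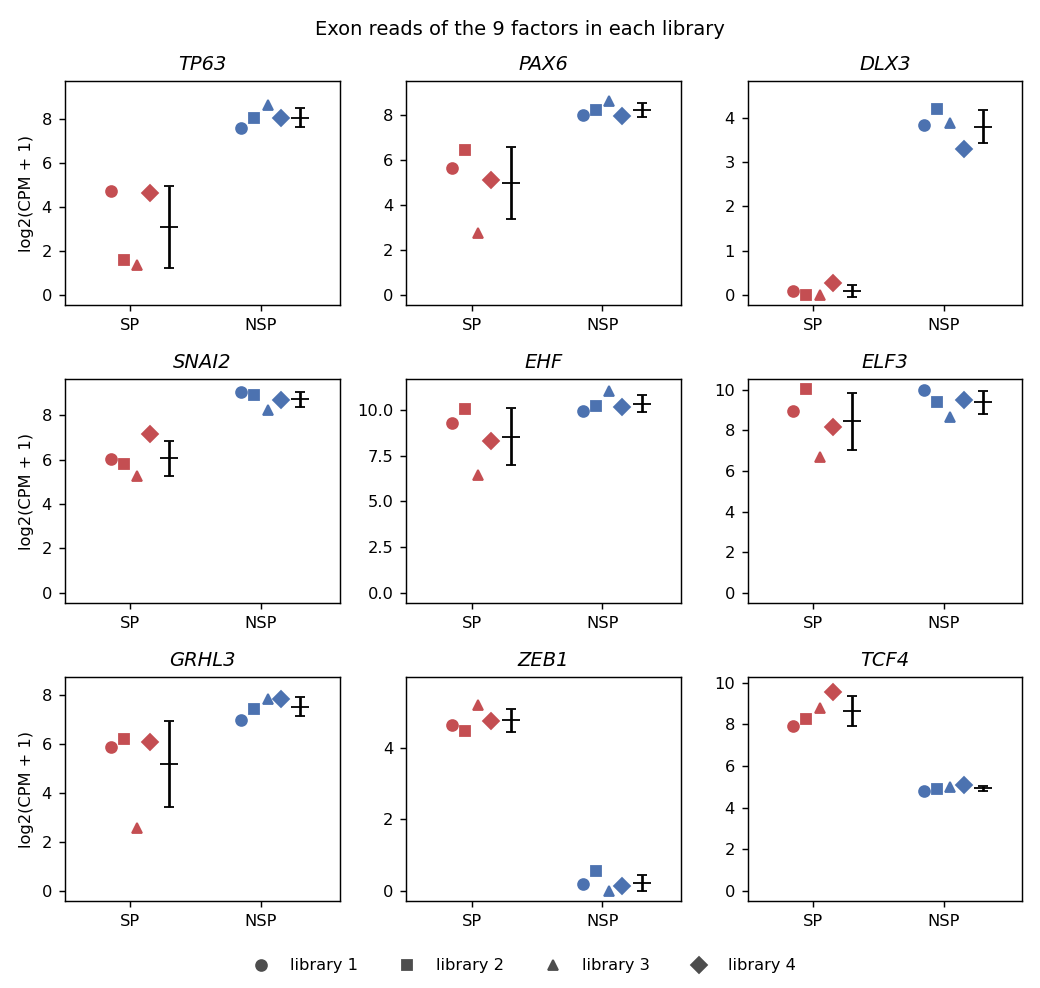
Levels of the 9 factors as log2(CPM + 1) on the vertical axis, for SP (red) and NSP (blue), with 1 symbol per library and bars for mean ± SD over 4 libraries. The groups are apart for 7 factors, and EHF and ELF3 overlap.

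In the authors' deposited table, which holds their own EDGE test, 7 of the 9 factors had a corrected p under 0.05, against 13.4% of all 20922 entries. These were the same 7 as in the limma-voom fit. The 20922 entries include those below the low-count filter, which all 9 factors passed, so 13.4% is not a like background. The deposited fold changes, written there as NSP over SP with a minus sign where SP was higher, were 22 for TP63, 7.47 for PAX6, 218 for DLX3, 6.18 for SNAI2 and 4 for GRHL3. In the authors' deposited table ZEB1 stood at -133 and TCF4 at -13.8. EHF missed the threshold there with a fold of 2.8 and a corrected p of 0.0519, and ELF3 with a fold of 1.61 and a corrected p of 0.637.

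The amounts by which the epithelial factors differed were compared within libraries, where library scaling has no part. For 4 ratios between factors, log2 ratios of exon reads were compared by exact two-sided permutation over 70 splits. The ratio of ZEB1 to TCF4 is given with no test, since ZEB1 passed the filter through SP alone. Benjamini-Hochberg adjustment was set over 5 ratios with this one included, and is given over the other 4 as well. No ratio passed over the 4. ELF3 exceeded TP63 by 19.1, 509, 64.1 and 11.7 times in SP 1 to SP 4, against 5.38, 2.56, 1.02 and 2.73 times in NSP 1 to NSP 4. The ratio was higher in every SP library than in any NSP library, with a mean difference of 4.39 on the log2 scale (exact permutation p = 0.0286, adjusted 0.0571 over 4 ratios and 0.0476 over 5). It was 3.29 without SP 2 and 5.10 without SP 4.

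PAX6 exceeded TP63 by 1.95, 42.8, 3.64 and 1.37 times in the SP libraries, while the 2 factors had nearly equal reads in NSP, with ratios of 1.35, 1.16, 1.02 and 0.957. The difference was 2.02 on the log2 scale (exact permutation p = 0.0286, adjusted 0.0571 over 4 ratios and 0.0476 over 5), and 0.94 without SP 2. The read ratio of SNAI2 to TP63 averaged 3.30 ± 1.65 in SP and 0.66 ± 0.76 in NSP on the log2 scale (SD, n = 4 each; exact permutation p = 0.0571, adjusted 0.0762 over 4 and 0.0714 over 5 ratios). SP 1 lay within the NSP range of this ratio, which did not pass.

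EHF and ELF3, the ETS pair, kept nearly equal reads in SP, where the log2 ratio of EHF to ELF3 was 0.10 ± 0.25, against 0.97 ± 1.01 in NSP (SD, n = 4 each). The difference of -0.87 did not pass (exact permutation p = 0.114, adjusted 0.114 over 4 or 5 ratios), and it was -0.40 without NSP 3, where EHF exceeded ELF3 by 5.23 times. ZEB1 relative to TCF4 was at -3.94 ± 0.66 in SP and at -7.91 ± 1.82 in NSP on the log2 scale, a difference of 3.97. In NSP this ratio rests on the 15 ZEB1 reads and the added offset of 0.5 reads.

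**Figure D2:**
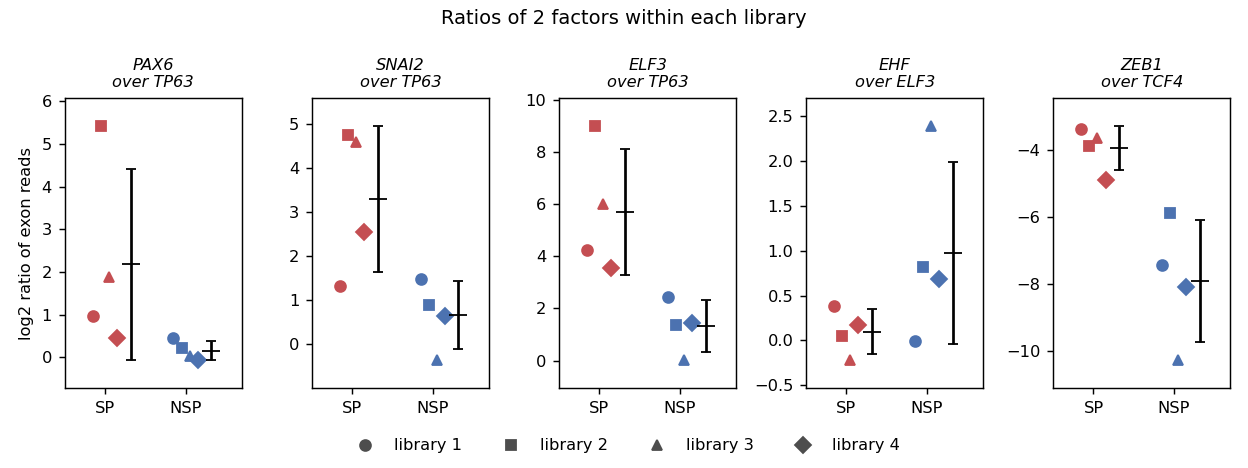
Log2 ratio of exon reads of 2 factors within each library (vertical axis), for SP (red) and NSP (blue), with 1 symbol per library and bars for mean ± SD over 4 libraries. ELF3 over TP63 lies between 3.55 and 8.99 in SP and between 0.02 and 2.43 in NSP, whereas EHF over ELF3 overlaps.

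Among the SP libraries the epithelial factors and SNAI2 varied widely. TCF4 also spread more in SP (3.09 times from lowest to highest library) than in NSP (1.23 times). The highest SP library exceeded the lowest by 16.3 times for TP63, 15.2 for PAX6, 14.8 for GRHL3, 12.3 for EHF, 10.2 for ELF3 and 3.72 for SNAI2. Among NSP libraries the same span was 2.07 for TP63, 1.58 for PAX6, 1.81 for GRHL3, 2.06 for EHF, 2.56 for ELF3 and 1.72 for SNAI2. SP 3 was the lowest SP library for all 6 of these factors. SP 2 was the highest SP library for PAX6, EHF, ELF3 and GRHL3, but its TP63 level of 2.02 CPM was close to that of SP 3. TP63 was highest in SP 1 and SP 4 instead, unlike these 4 factors.

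Epithelial structural markers moved with these values. Of 14 measured markers, which include keratins, desmosomal genes and E-cadherin, 12 fell in SP and 2 did not pass, against 13.0% of all tested genes that fell. Their summed level was 9401, 7194, 1474 and 7889 CPM in SP 1 to SP 4, against 28252 to 51693 CPM in NSP, so SP 3 was lowest here as well. KRT15, a keratin of basal limbal cells, held 155, 45.4, 69.7 and 2035 CPM in SP 1 to SP 4, and the corneal keratin KRT12 held 3829, 299, 169 and 644 CPM in the same libraries. None of the 14 markers was at 0 in either group. The part of these differences in the results on the factors was not tested.

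**Figure D3:**
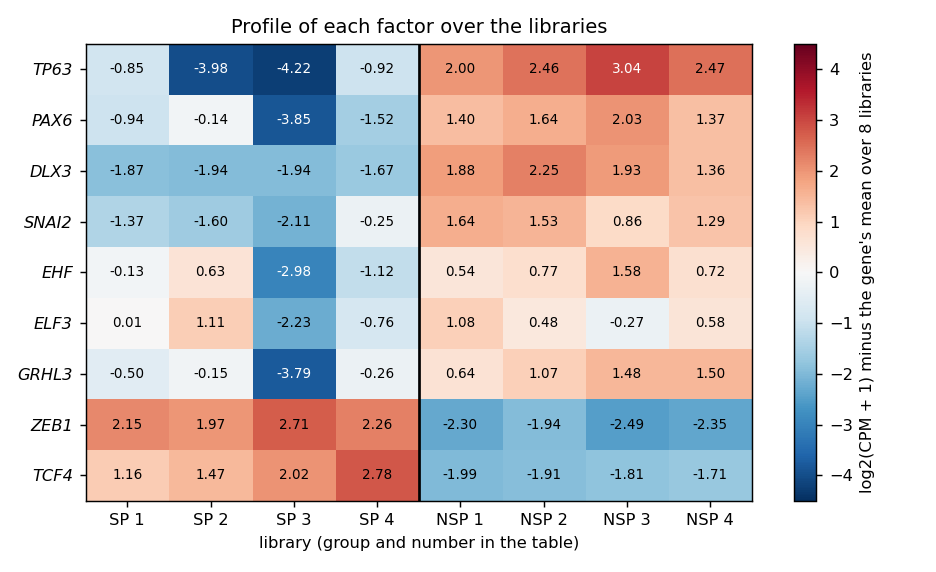
Level of each factor (rows) in each library (columns) as log2(CPM + 1) minus the mean of that gene over 8 libraries, red above and blue below the mean. SP 3 is the lowest SP library for TP63, PAX6, SNAI2, EHF, ELF3 and GRHL3. ZEB1 and TCF4 run in the opposite direction to TP63, PAX6, DLX3, SNAI2 and GRHL3, while EHF and ELF3 overlap between the groups.

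Likeness between genes was measured as the root mean square difference of centred log2(CPM + 1) profiles over the 8 libraries, a description in which all genes share the same libraries and depth. Among the factors, EHF and GRHL3 were closest (0.60), followed by PAX6 and GRHL3 (0.61) and by ZEB1 and TCF4 (0.61). SNAI2 was nearest to DLX3 (0.72), ELF3 to EHF (0.77) and TP63 to DLX3 (1.30), the widest of these distances.

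Over all 8589 tested genes with a usable name, the nearest profile to TP63 was FAM19A3 (0.35) and the next PLET1 (0.52). PAX6 was nearest to DLG2 (0.30) and GRIP1 (0.33), DLX3 to CKMT1B (0.32) and COL25A1 (0.33), and SNAI2 to HAP1 (0.19) and FGFR2 (0.20). EHF was nearest to REPS2 (0.20) and the homeobox gene OTX1 (0.21), ELF3 to CCDC120 (0.20) and P2RY2 (0.25), and GRHL3 to XDH (0.32) and KRTCAP3 (0.36). ZEB1 was nearest to GPSM3 (0.23) and SPI1 (0.31), which is also listed here as a myeloid marker, and TCF4 to NAV1 (0.15) and SLC43A1 (0.18).

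Levels between genes were compared as CPM per kilobase of exon. In NSP the order was ELF3 at 355 ± 129, EHF at 243 ± 87.7, PAX6 at 220 ± 49.5 and SNAI2 at 209 ± 46.6 CPM per kb (SD, n = 4). These 4 neighbours did not differ beyond their spread, and their order changed between libraries, with EHF first in NSP 3 and ELF3 first in the other NSP libraries. GRHL3 followed at 63 ± 16.5 and TP63 at 51.5 ± 15.7 CPM per kb, also within their spread, although GRHL3 ranked above TP63 in all 4 NSP libraries. TCF4 at 13.1 ± 1.16, DLX3 at 5.23 ± 1.37 and ZEB1 at 0.0434 ± 0.0502 CPM per kb closed the order in every NSP library.

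In SP the order began with ELF3 at 242 ± 206, TCF4 at 194 ± 102 and EHF at 94.8 ± 76.7 CPM per kb (SD, n = 4), none apart from its neighbour by more than the spread. TCF4 was first in SP 3 and SP 4, while in SP 1 and SP 2 both ELF3 and EHF stood above it. SNAI2 at 36 ± 22.1, PAX6 at 32 ± 24.9 and GRHL3 at 16.9 ± 10.4 CPM per kb followed, again within their spread. ZEB1 at 6.65 ± 1.59 CPM per kb ranked above TP63 at 2.48 ± 2.48 CPM per kb in all 4 SP libraries, and DLX3 was last in each. On this scale the order of ZEB1 and TP63 was thus opposite in the 2 groups. It depends on the annotated exon lengths, since in CPM TP63 (25.4) was above ZEB1 (23.9) in SP 1. ZEB1 had also passed the filter through SP alone.

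Intron reads give a second count for the same genes, since total RNA also holds transcripts that are not yet spliced, besides any DNA left in a preparation. The same fit on intron reads called 23.2% of 12722 genes, 12.3% higher and 10.8% lower in SP. DLX3 was not measured in it, with 1 intron read in all libraries. Of the other 8 factors, 4 fell, 2 rose and 2 did not pass, each in the direction of its exon reads.

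TP63 fell by 3.20 ± 0.41 (limma-voom adjusted p = 0.000337) and SNAI2 by 4.45 ± 0.95 (adjusted p = 0.0065) on the log2 scale of intron reads. GRHL3 fell by 1.77 ± 0.43 (adjusted p = 0.0127). PAX6 fell by 2.40 ± 0.72 (limma-voom adjusted p = 0.0331), a call that ended without SP 3, SP 4, NSP 2, NSP 3 or NSP 4 (adjusted p up to 0.0878), and its log2 fold change was -1.53 without SP 3. SNAI2 was at -3.51 without SP 1 and at -5.28 without SP 4, and passed in both. It had only 0, 8, 1 and 22 intron reads in SP 1 to SP 4. Its fitted size depends on the added offset and was -3.12 with limma-trend. EHF was at -2.02 (adjusted p = 0.0734), but it passed with upper-quartile factors (-2.16, adjusted p = 0.0472) and without SP 2 (-2.64, adjusted p = 0.017), and was at -1.07 without SP 3. ELF3 was at -1.45 (adjusted p = 0.348), and at -0.58 without SP 3. ZEB1 rose by 3.08 ± 0.28 (limma-voom adjusted p = 4.5e-05) and TCF4 by 3.70 ± 0.37 (adjusted p = 8.89e-05). The exon and intron fold changes of TCF4 lay close together, and those of TP63, PAX6, GRHL3 and ZEB1 were smaller from intron reads, differences that were not tested.

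**Figure D4:**
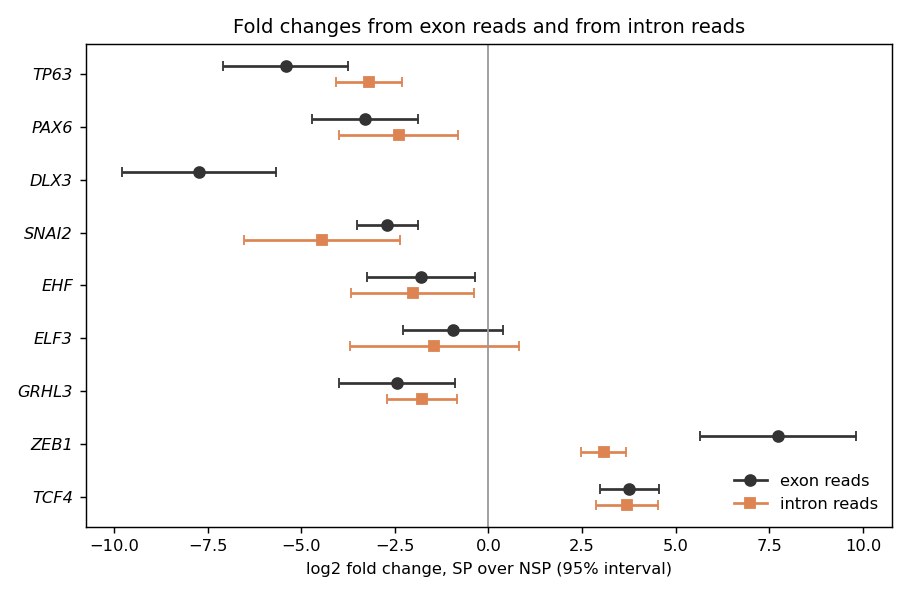
Log2 fold change SP over NSP (horizontal axis) of each factor from exon reads (black circles) and from intron reads (orange squares), with 95% intervals from the fit. DLX3 has no intron value, and the intervals of ELF3 include 0.

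The share of intron reads among all reads of a gene was compared for the 8 factors with intron reads. It was 57 ± 23.9% in SP and 21 ± 2.92% in NSP for TP63 and 8.26 ± 2.16% in SP and 3.66 ± 0.867% in NSP for PAX6 (SD, n = 4 each; exact permutation p = 0.0286 for both, adjusted 0.0762 over 8 genes). ZEB1 stood at 71.2 ± 0.42% in SP and 96.1 ± 5.81% in NSP, and is given with no p-value. It passed the exon filter through SP alone, so a high share in NSP follows from its few exon reads there. The adjustment over 8 genes included ZEB1. None of the 8 shares passed after adjustment, and the other 5 had an unadjusted p between 0.229 and 0.857. The intron share of all gene reads was itself higher in SP, and its part in these values was not tested.

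For the long genes TP63, ZEB1 and TCF4, intron reads per kilobase of intron, scaled to gene reads, were set beside 605 long genes with introns of 50 kb or more and at most 3 exon reads in all libraries. ZEB1 had intron densities of 0.243, 0.227, 0.357 and 0.2 in SP 1 to SP 4, above the upper quartile of these genes in every library. In NSP its density was 0.034, 0.0153, 0.028 and 0.0334, each inside the quartiles of its library. The intron reads of ZEB1 in NSP were about as dense as in genes with almost no exon reads.

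TP63 had intron densities of 0.055, 0.0135, 0.024 and 0.026 in SP 1 to SP 4, of which only that of SP 1 was above the upper quartile of its library (0.0473). In NSP its density was 0.162, 0.218, 0.375 and 0.171, above the upper quartile in all 4. TCF4 was above the quartiles in every SP library, at 0.486, 0.478, 1.01 and 1.02, whereas in NSP only NSP 3 (0.0891) lay above its upper quartile of 0.0474. TCF4 lay inside the quartiles in the other 3 NSP libraries although it had 594 or more exon reads in each, so a density inside the quartiles does not by itself mark a gene with few exon reads.

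**Figure D5:**
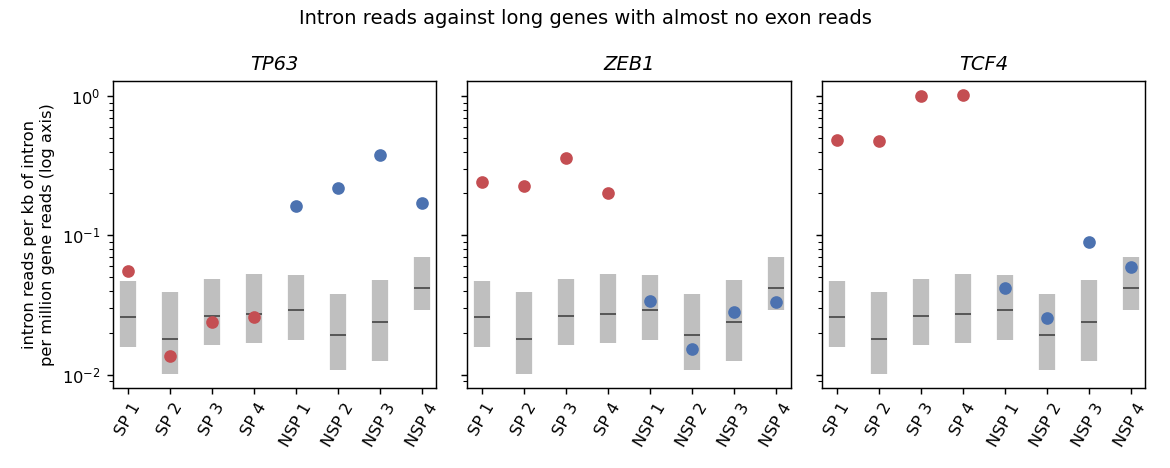
Intron reads per kb of intron, scaled to a common total of gene reads (log axis), of TP63, ZEB1 and TCF4 in each library, SP in red and NSP in blue. Grey bars span the quartiles and lines mark the median of 605 long genes with at most 3 exon reads in all. ZEB1 lies inside the grey bars in all 4 NSP libraries.

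Related factors were described from lists of genes with known roles, whose names were usable only in part because the table cuts names at 8 characters. Every gene list used here was chosen with earlier results of these data known, so its count beside the background is a description only. A usable entry was found for 18 of 30 listed other epithelial factors, 10 of 24 other transition factors, 19 of 29 genes dependent on p63 and 12 of 16 on PAX6, 18 of 27 barrier genes and 23 of 35 repressed genes. Of 18 measured other epithelial factors, 8 fell, 1 rose and 9 did not pass, where 13.0% of all tested genes fell and 17.7% rose, with a median log2 fold change of -1.40 against 0.12 over all tested genes. The 1 that rose passed the filter through SP alone, so its rise was fixed in advance. Those that fell included KLF5 (-2.09), a factor of epithelial proliferation, CASZ1 (-1.82), OVOL2 and TFAP2A. GRHL2, the relative of GRHL3, stood at -0.83 ± 0.34 (limma-voom adjusted p = 0.0903) and KLF4, a factor of epithelial differentiation, at -0.11 ± 0.42 (adjusted p = 0.873), and neither passed. Without SP 3, 5 factors of this list were called instead of 9.

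Of 9 measured other factors of epithelial-mesenchymal transition, 3 rose and 6 did not pass, with a median log2 fold change of 1.23. The called share of this list was near the 30.7% of all tested genes, of which 17.7% rose. MEOX1 (7.93 ± 1.83, from 1174 reads in SP and 8 in NSP), a homeobox factor of mesoderm, ETS1 (1.97 ± 0.60), a factor of endothelial and lymphoid cells, and SOX4 (1.18 ± 0.41) rose. SNAI1, the relative of SNAI2, averaged 8.33 ± 4.52 CPM in SP against 3.27 ± 1.12 CPM in NSP (SD, n = 4 each) and did not pass (1.23 ± 0.53, limma-voom adjusted p = 0.106). PRRX1 had 71 reads in SP and 14 in NSP and did not pass (adjusted p = 0.0747), and TBX18, with 6 reads in SP and 2 in NSP, was not measured. The count of this list was 1 without SP 2 or without SP 3 and 5 without SP 4.

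Genes that depend on p63 in epithelia fell with few exceptions. Of 19 measured, 18 fell and 1 did not pass, with a median log2 fold change of -3.45, where 13.0% of all tested genes fell. LAMB3 (-5.78 ± 0.49), a laminin chain of hemidesmosome anchorage, COL17A1 (-6.40 ± 0.79), a hemidesmosomal collagen, and the receptor gene FGFR2 (-2.76 ± 0.36) had the smallest p-values. TRIM29 missed the threshold (-1.84 ± 0.65, limma-voom adjusted p = 0.054). The summed level of the list was 831 to 5596 CPM in SP and 36653 to 40916 CPM in NSP. As for TP63 itself, the groups were far apart.

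Of 11 measured corneal genes that depend on PAX6, 8 fell and 3 did not pass, against 13.0% of all tested genes that fell, with a median of -2.85. TKT (-3.05 ± 0.31), an enzyme abundant in the cornea, GJB2 (-3.83 ± 0.50), a connexin gene, and TGFBI (-3.78 ± 0.44), whose matrix protein is altered in corneal dystrophies, had the smallest p-values. CLU (0.17 ± 0.50, limma-voom adjusted p = 0.824), WNT7A (-2.85 ± 1.05, adjusted p = 0.0636) and ABLIM1 (0.27 ± 0.31, adjusted p = 0.545) did not pass. SPINK7 was not measured, with 7 reads in SP and none in NSP.

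Barrier genes downstream of grainyhead and ETS factors gave 11 falls, 0 rises and 7 genes that did not pass among 18 measured, with a median of -1.69, where 13.0% of all tested genes fell. TGM1 (-2.79 ± 0.45), the transglutaminase of the cornified envelope, CLDN1 (-3.31 ± 0.58), a tight junction gene, and ESRP1 (-2.15 ± 0.45), an epithelial splicing regulator, had the smallest p-values. Of 23 measured epithelial genes that ZEB1 and SNAI2 can repress, 10 fell, 0 rose and 13 did not pass, with a median of -1.41. Over all tested genes 13.0% fell and 30.7% were called in either direction. DSP (-2.70 ± 0.51) and JUP (-2.46 ± 0.48), which encode desmosomal proteins, fell, whereas F11R (-0.47 ± 0.29, limma-voom adjusted p = 0.254) and EPN3 (-0.21 ± 0.27, adjusted p = 0.59) did not pass. The lists share genes, among them CDH1, EPCAM, ESRP1, ESRP2 and RAB25 in both of the last 2.

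Mesenchymal structural genes moved with ZEB1 and TCF4. Of 16 measured, 11 rose and 5 did not pass (17.7% of all tested genes rose), with a median of 3.90, and 4 of the 16 passed the filter through SP alone. VIM (7.61 ± 0.38), the intermediate filament gene of mesenchymal and blood cells, COL1A1 (8.07 ± 1.02) and COL1A2 (3.14 ± 0.40) had the smallest p-values. Their summed level was 2937, 3919, 7311 and 8555 CPM in SP 1 to SP 4 and 503 to 821 CPM in NSP. COL3A1, LUM and KERA had no NSP read, and KERA, a keratocyte gene with 3 SP reads, was not measured.

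Markers of other cell types were also higher in SP, and many of those cells are known to express ZEB1 or TCF4. Usable entries were found for 17 of 26 listed mesenchymal structural genes, 12 of 20 endothelial, 16 of 25 T and NK, 9 of 14 B and plasma cell, 13 of 20 myeloid, 12 of 14 melanocyte and 11 of 15 Schwann cell markers. Against 17.7% of all tested genes that rose, 10 of 12 measured endothelial markers did, with summed levels of 1208, 4161, 4620 and 11494 CPM in SP 1 to SP 4 and 164 to 185 CPM in NSP. SOX7 supplied most of the NSP sum, and PECAM1 had 7, CDH5 2 and TEK 2 reads over all NSP libraries. Of 15 measured T and NK cell markers 14 rose, with 2097 to 8468 CPM in SP and 101 to 214 CPM in NSP, and CD8B, IL7R, GZMK and CD96 had no NSP read. RUNX3, which did not pass, supplied most of that NSP sum, with 81.4 to 200 CPM. All 7 measured B and plasma cell markers rose, with 680 to 1467 CPM in SP and 98.4 to 133 CPM in NSP, and MS4A1, POU2AF1 and MZB1 had no NSP read. PRDM1 supplied nearly all of that NSP sum, with 98.2 to 132 CPM.

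Of 10 measured myeloid markers 7 rose, with summed levels of 1179 to 2600 CPM in SP and 46.8 to 116 CPM in NSP. The complement genes C1QA and C1QB were not measured, with no SP read and only 22 and 9 NSP reads, all in NSP 3. Of 12 measured melanocyte markers 11 rose, with 13923, 2229, 8627 and 2832 CPM in SP 1 to SP 4 and 193 to 339 CPM in NSP. Schwann cell markers gave 4 rises and 1 fall among 9 measured, with 566 to 1344 CPM in SP and 316 to 391 CPM in NSP. The fall was NGFR (-2.12 ± 0.45), which basal epithelial cells also express. Of these markers 4 endothelial, 10 T and NK, 5 B and plasma cell, 1 myeloid and 1 Schwann cell genes passed the filter through SP alone, so the counts are descriptions only. The part of these cells in the levels of ZEB1, TCF4 and the epithelial factors was not tested.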

How the data were processed

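RNA-seq of 4 SP and 4 NSP samples was used. The deposited file is a fixed-width text table (163 fields, each 8 characters wide, split over 6 blocks) and was read by character position. Other per-library fields (120 of 152) were not used. The aligner is not given in the sources used here, nor are the build and annotation. The measures, whose headers are cut, were identified by arithmetic: exon plus intron reads equal gene reads in every deposited entry, and deposited RPKM is recovered from exon reads, length and gene reads within a relative 5.35e-07. The deposited values used, of a unit the headers do not state (other), are whole read counts by these checks. Fold changes and corrected p-values of the EDGE test are the authors', per the file headers. Column headers show a library's group and not which sample it is.

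Names of 10916 entries were usable, matched where cut to RefSeq symbols (mOryCun1.1). The other 10006 entries, with 10.1% of exon reads, stayed in all totals and tests. Library scaling used TMM factors, trimming 30% of log ratios and 5% of levels. Genes needed 15 reads in all and, in at least 4 libraries, a CPM of 0.508 (10 reads at median depth). The test was limma-voom (limma 3.58.1, R 4.3.3; offset 0.5 reads, group only, two-sided, Benjamini-Hochberg threshold 0.05), tested on simulated data. A count model was not used because the touching fields declare no count column. Ratios and shares were compared by exact permutation. Python 3.11.15, pandas 2.3.3, NumPy 2.4.6, SciPy 1.17.1 and matplotlib 3.10.9 were used.

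The factors and gene lists were chosen with earlier results of these data known, and the lists include genes that earlier work on these libraries had named. Named genes are the 9 factors, the 2 nearest profiles of each, and the 3 called genes of lowest p in each list and direction. Other genes were named after their values were seen. Some genes that this rule names are not reported here and stayed in all tests and counts. The alternatives used upper-quartile or median-ratio factors, a filter of 1 read or of 10 reads in 4 libraries, limma-trend (0.5 CPM added), voom with quality weights, or left out each library. The intron fit, its densities, the list counts under other settings and the adjustment over 4 ratios were added after the data were seen. No pair of libraries within a group was a repeat of 1 library, with chi-square per degree of freedom of 51.8 or more.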

Additional observations from a re-analysis of the deposited data

Results flagged for a closer look

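EHF in the NSP group was picked out because 1 library stood apart from the other 3. NSP 3 held 2079 CPM and the lowest NSP library 1009 CPM, and the gap to the nearest library was 0.835 of the range, above Dixon's 95% critical value for 4 samples. NSP 3 was also the highest NSP library for TP63 and PAX6 and the lowest for SNAI2 and ELF3. In all, 28 groups of 4 values were examined, and chance flags about 1 in 20.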

How the results depend on the processing

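No direction of a factor reversed under any alternative. Of the exon results of the 9 factors, 119 of the alternative values kept their side of the threshold, 5 came to pass it and 2 lost it. EHF came to pass it with upper-quartile (-1.99) or median-ratio factors (-1.93) and with limma-trend (-1.81), and with 1 library left out it ranged from -2.32 to -1.11. GRHL3 ranged from -2.90 to -1.49 with 1 library left out, TP63 from -6.11 to -4.70, PAX6 from -3.84 to -2.48, SNAI2 from -3.18 to -2.43, ELF3 from -1.46 to -0.35, ZEB1 from 6.95 to 8.38 and TCF4 from 3.32 to 4.00. The cause of these shifts was not tested. Calls over all genes numbered 3073, and 2265 to 3850 with 1 library left out. List counts moved beyond 1.5 times for other epithelial factors (5 to 10) and other transition factors (1 to 5). With ZEB1 over TCF4 left out of the adjustment, ELF3 over TP63 (4.39) and PAX6 over TP63 (2.02) no longer passed. The ratio left out had tied with them at the smallest p-value, and that tie had lowered their adjusted values. Ratios with 1 library left out were computed as values and not tested. No paired analysis was possible because column headers carry a group and no replicate number. Depth limits DLX3 in SP and ZEB1 in NSP, where a level near 0 cannot be told from background reads.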
